A study of Mus musculus with 12 samples.

Results

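Uridines of the mitochondrial mRNAs were followed base by base in mouse heart RNA, and their rate of deletion in sequencing reads was compared with and without CMC and between knockout and wild-type hearts. The positions were taken by rule: every thymine of the reference (uridine in the RNA) within 9 stretches of the mitochondrial genome that hold the 12 mRNAs encoded on the plus strand, with at least 1000 reads in each of 12 libraries. Of 3182 uridines in these stretches 3095 met the minimum and 87 did not. The adenosines (3468), cytidines (2758) and guanosines (1218) of the same stretches served as comparison, and 14115 of the 16284 positions shared by the 12 tables met the minimum. The rule used no deletion value, but it was set with earlier results of these data known. The 3 uridines just inside the minimum had 0 to 1 deletion over all 12 libraries and the 3 just outside had 1 to 7.

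The libraries were total RNA of mouse hearts after removal of cytoplasmic ribosomal RNA, in 4 groups of 3: Ptcd1 knockout (KO) without CMC, Ptcd1 knockout with CMC, wild type (WT) without CMC and wild type with CMC. PTCD1 belongs to the pentatricopeptide repeat proteins and acts in mitochondria, and the series asks what its loss does at the RNA level. The type of knockout, any Cre driver, the strain, the age of the mice and whether replicates are separate animals are not stated, so p-values measure the spread between these libraries, which may be technical. Ptcd1 itself had 78, 71 and 74 reads in untreated WT and 28, 17 and 19 in untreated KO libraries, a log2 difference of -1.93 ± 0.19 (SE, adjusted p = 3.08e-19). Of the cardiomyocyte markers, 5 were measured and all stood at 385 to 2853 counts per 1000000 (CPM) in every library, and the liver marker Alb at 0 to 0.0925. The fibroblast markers Dcn and Col1a1 stood at 162 to 255 and 16.4 to 29.4 CPM. The endothelial markers Cdh5 and Pecam1 stood at 80.5 to 109 and 54.3 to 71.1. The leukocyte markers Ptprc and Cd68 stood at 6.41 to 9.61 and 1.76 to 6.23. The skeletal muscle markers Acta1 and Myh4 stood at 115 to 702 and 0 to 1.23. The hearts were thus mixed tissue.

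Pseudouridine is an isomer of uridine in which the base is joined to the sugar through carbon, and it is made after transcription by pseudouridine synthases. CMC is a carbodiimide that attaches to uridine-like and guanosine-like bases. After an alkaline wash the adduct is kept mainly on pseudouridine, where it can halt reverse transcriptase at the base on the 3′ side or lead it to skip or misread the modified base. A skipped base appears as a deletion in the read. In mitochondria, pseudouridines are known in transfer RNAs, in the 16S ribosomal RNA and in some mRNAs, and the synthases TRUB2 and RPUSD3 have been linked to mRNA sites. A deletion is not itself a measure of pseudouridine: reverse transcriptase, sequencing and alignment also delete bases, most readily in runs of a repeated base.

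The first 8 sequences below are the 6 uridines of each genotype with the largest log2 rise after CMC among those with a mean rate of at least 1000 deletions per 1000000 reads with CMC and no overlap between libraries, 4 of them in both. Each is printed 5′ to 3′ on the plus strand of mm10 with 15 bases on each side, with the uridine as a capital T; "nt" counts from the first base of the gene. The first 3 share a feature that recurs in the results: a cytidine before the uridine and at least 4 cytidines after it.
mt-Nd3 nt 71 (chrM:9514-9544): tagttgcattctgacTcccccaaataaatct
mt-Nd2 nt 411 (chrM:4309-4339): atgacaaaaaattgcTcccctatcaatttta
mt-Co2 nt 233 (chrM:7230-7260): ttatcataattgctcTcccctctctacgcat
mt-Nd3 nt 158 (chrM:9601-9631): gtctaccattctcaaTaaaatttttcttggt
mt-Nd4 nt 1212 (chrM:11363-11393): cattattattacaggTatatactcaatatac
mt-Nd5 nt 876 (chrM:12602-12632): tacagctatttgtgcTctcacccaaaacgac
mt-Nd5 nt 1027 (chrM:12753-12783): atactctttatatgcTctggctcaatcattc
mt-Nd5 nt 1408 (chrM:13134-13164): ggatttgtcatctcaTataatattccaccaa
All lie in coding exons; mitochondrial genes have no introns. A further 3 are shown because they were called between genotypes.
mt-Nd5 nt 1319 (chrM:13045-13075): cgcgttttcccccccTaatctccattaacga
mt-Co1 nt 1276 (chrM:6588-6618): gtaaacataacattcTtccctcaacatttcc
mt-Co1 nt 192 (chrM:5504-5534): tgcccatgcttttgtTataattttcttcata

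The gene tables held 10389398 to 12462093 reads per library, 70.5% to 75.4% of them in mitochondrial genes. Median depth at the 3095 uridines was 19746 to 24669 reads in WT and 54477 to 64904 in KO libraries, and the highest depth was 536249. A uridine with 0 deletions at the median depth allows a rate of up to 46.2 to 152 deletions per 1000000 reads, depending on the library (3 counts; counting error only). WT CMC replicate 3 stood apart from the other 2 WT CMC libraries: chi-square per degree of freedom of its uridine deletions against theirs was 6.01 and 9.67, compared with 1.94 between those 2 and 1.16 to 2.53 within the other groups. The pooled uridine rate and the main counts of deletion calls are given with and without it. Other WT means and ratios with CMC include it.

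Without CMC the pooled deletion rate of the 3095 uridines, that is all deletions over all reads, was 23.1, 22.2 and 23.0 per 1000000 reads in WT and 24.6, 24.8 and 24.9 in KO libraries. With CMC it was 107, 135 and 65.0 in WT and 67.7, 56.7 and 68.5 in KO libraries. Every CMC library lay above every untreated one, while the WT and KO libraries with CMC overlapped through WT replicate 3. The mean with CMC was 4.49 times the untreated mean in WT (102 ± 35.4 against 22.8 ± 0.53; SD, n = 3) and 2.60 times in KO (64.3 ± 6.58 against 24.8 ± 0.17). Each contrast had p = 0.1 by the two-sided exact permutation test, the smallest that 3 against 3 libraries allow, and KO against WT with CMC had p = 0.3 by the same exact test. Without replicate 3, the WT ratio was 5.31; replicate 3 alone was at 2.85 times the untreated mean.

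Uridine was the base with the highest rate in 11 of 12 libraries, but all 4 bases were deleted more often with CMC, as the plot of rate by base shows. Adenosines stood at 21.7 without and 79.4 with CMC in WT (3.65 times), cytidines at 17.5 and 63.8 (3.64 times) and guanosines at 7.75 and 23.9 (3.08 times). In KO the 3 ratios were 2.79, 2.76 and 2.23. The uridine rate divided by that of the other bases together was 1.29 ± 0.025 without and 1.57 ± 0.23 with CMC in WT (SD, n = 3; exact permutation p = 0.2). In KO it was 1.38 ± 0.015 without and 1.30 ± 0.066 with CMC (exact permutation p = 0.1). With CMC the WT libraries stood at 1.64, 1.76 and 1.32 and the KO libraries at 1.30, 1.23 and 1.36, so the genotypes overlapped through WT replicate 3 (exact permutation p = 0.2).

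Single uridines, those with no uridine beside them, were 1490 of the 3095. Their rate was 14.4, 14.2 and 14.1 in untreated WT and 102, 128 and 68.0 with CMC, a ratio of 6.96. In KO it was 14.1 to 15.3 without and 71.3, 58.9 and 70.0 with CMC, a ratio of 4.50. Divided by the rate of other bases that also stood singly, uridines were at 1.38 ± 0.004 without and 1.72 ± 0.10 with CMC in WT, and at 1.36 ± 0.029 and 1.58 ± 0.050 in KO. The libraries did not overlap in either genotype (exact permutation p = 0.1 each, the smallest possible). The other bases differed, however. Single adenosines had ratios of 5.57 in WT and 3.81 in KO, cytidines 6.06 and 4.41, and guanosines 3.92 and 2.36. In KO the ratio of single cytidines was thus close to that of single uridines, and uridines against cytidines alone were not tested.

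**Figure D1:**
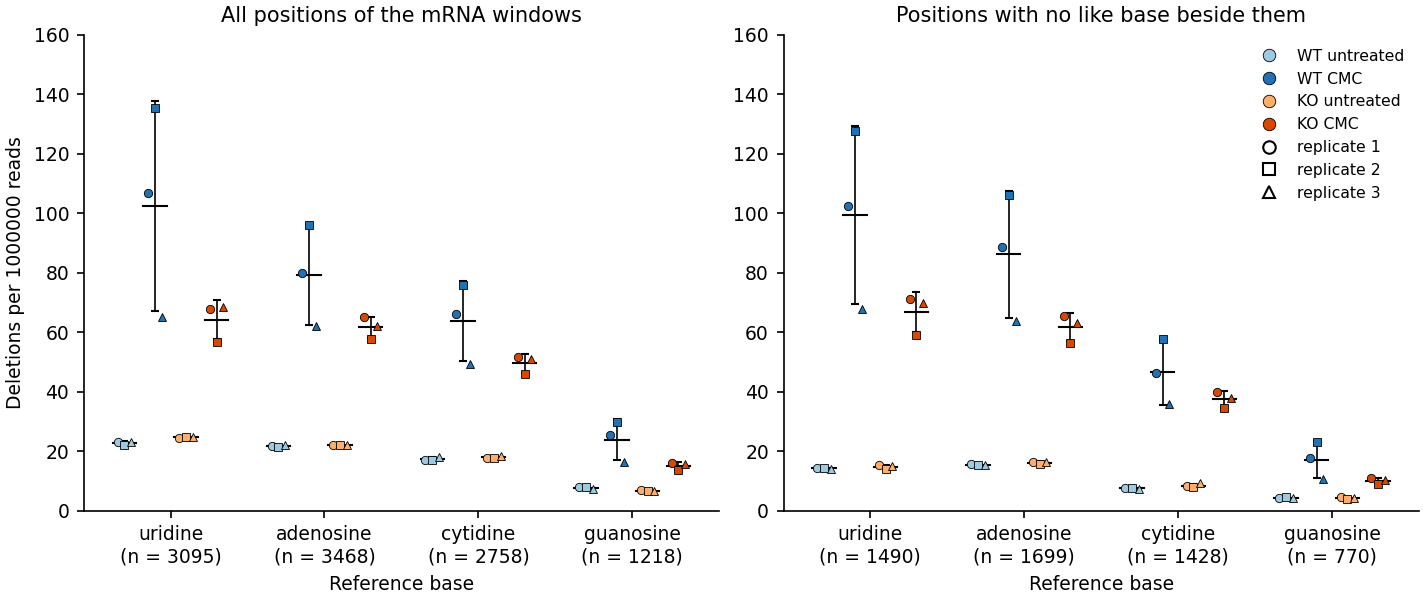
Pooled deletions per 1000000 reads (y axis) at each reference base (x axis) in the mRNA stretches, for all positions (left) and for positions with no like base beside them (right). Points are libraries, lines are means and bars are SD (n = 3); in every base the CMC libraries lie above the untreated ones, and WT CMC replicate 3 lies lowest of its group.

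Most uridines were seldom deleted. Of the 3095, 866 had no deletion in any library and 709 had at least 20 over the 12 libraries. In untreated WT 2092 (67.6%) had none, and in WT with CMC 1385 (44.7%); in KO, at greater depth, the numbers were 1664 (53.8%) and 1263 (40.8%). A mean rate of at least 1000 per 1000000 reads was reached by 5 uridines in untreated WT, 50 in WT with CMC, 4 in untreated KO and 24 in KO with CMC. The 10 most deleted uridines held 18.7% of all uridine deletions in untreated WT and 18.5% with CMC, and 17.6% and 25.4% in KO.

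Position by position, 258 of the 352 uridines that could be tested in WT rose with CMC (73.3%) and 0 fell; over all 1781 positions tested 68.2% rose. The test was the edgeR quasi-likelihood test of deletion counts with depth as offset, for positions with at least 20 deletions in the 6 libraries, adjusted by Benjamini-Hochberg over all of them and called at 0.05. By base the share that rose was 63.6% of adenosines, 71.8% of cytidines and 64.9% of guanosines. At an unadjusted p under 0.05, 268 uridines were higher and 0 lower, and DESeq2 called 224 higher and 0 lower. The count was 260 of 304 without WT CMC replicate 3 (background 78.5%) and 162 without replicate 2. The share of uridines called was thus near the background of all positions. A position seldom deleted without CMC can reach the minimum of 20 deletions only through the CMC libraries, so shares of tested positions that rose are descriptions.

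In KO, 264 of 527 tested uridines rose with CMC (50.1%) and 0 fell by edgeR, against 52.6% of all 1992 positions tested. The share was 45.7% of adenosines, 58.7% of cytidines and 49.3% of guanosines. At an unadjusted p under 0.05, 290 uridines were higher and 2 lower; DESeq2 called 213 higher and 0 lower. The median log2 change was 2.28 over the tested uridines in WT (2.09 over all positions) and 1.12 in KO (1.16 over all). These sets of uridines differ: over the 332 tested in both genotypes the medians were 2.24 in WT and 1.28 in KO. In the 2 genotypes together, 189 uridines were called in both, which is 73.3% of the WT calls and 71.6% of the KO calls. Not all calls could be compared: 243 of the 258 WT calls were tested in KO, and 201 of the 264 KO calls in WT. The same overlap was not counted over all positions, of which 68.2% were called higher in WT and 52.6% in KO. The overlap is therefore a description and is not shown to be particular to uridines.

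When each library was scaled by its own deletion rate at the other bases, a common rise of all bases is removed. In WT 77 uridines were then higher and 32 lower (all positions: 22.9% higher, 14.3% lower), and in KO 94 were higher and 140 lower (all positions: 18.0% higher, 22.9% lower). Among single uridines the scaled calls were 53 higher and 1 lower of 127 tested in WT, and 68 higher and 8 lower of 191 in KO. Among uridines that open a run they were 13 higher and 30 lower of 200 in WT, and 13 higher and 129 lower of 299 in KO. Single positions of the other bases also rose more than the rate used for scaling. With CMC they stood at 5.55 times the untreated mean in WT and 3.87 times in KO, against 3.61 and 2.75 for all other bases. Their scaled calls were not counted, so the counts for single uridines are not shown to be particular to uridine.

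mt-Nd3 nt 71, in the mRNA of a complex I subunit, reached the highest rate of any uridine with CMC in WT. It was deleted at 85, 81 and 41 per 1000000 reads in untreated WT and at 5894, 7401 and 3876 with CMC. In KO it stood at 33, 52 and 70 without and 3936, 3726 and 3984 with CMC. The log2 change was 6.31 ± 0.44 in WT (SE; adjusted p = 4.17e-15) and 6.23 ± 0.17 in KO (adjusted p = 7.16e-58). The KO libraries with CMC lay within a narrow band, near the lowest of the WT ones, and no difference between genotypes was called by edgeR (log2 -0.56 ± 0.22, adjusted p = 0.159).

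mt-Nd2 nt 411, in another complex I mRNA, was deleted at 55, 0 and 0 per 1000000 reads in untreated WT and at 2372, 3436 and 1301 with CMC. The WT counts were 1 deletion in 53362 reads and 125 in 54972, a ratio of 121 (95% counting interval 21.4 to 4830; adjusted p = 4.86e-09). In KO it stood at 12, 24 and 25 without and 1560, 1270 and 1565 with CMC (log2 6.11 ± 0.31, adjusted p = 1.34e-34). Treated and untreated libraries were thus far apart in both genotypes.

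mt-Co2 nt 233, in the mRNA of the copper-binding subunit of cytochrome c oxidase, was at 10, 0 and 20 per 1000000 reads in untreated WT and at 1182, 1528 and 532 with CMC (3 and 337 deletions; ratio 107, 95% counting interval 36.3 to 521; adjusted p = 3.22e-12). In KO it was at 17, 9 and 9 without and 549, 373 and 440 with CMC, a log2 change of 5.24 ± 0.30 (adjusted p = 1.11e-30). With CMC its KO libraries were below the WT ones but for WT replicate 3, and the difference missed the threshold (log2 -1.24 ± 0.31, adjusted p = 0.0558). Its rate of misreading also changed in KO, by a log2 of 0.31 (adjusted p = 0.0342).

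These 3 are among 12 uridines followed by at least 4 cytidines, a group formed after the values were seen. Pooled, the 12 stood at 13.1 ± 1.51 per 1000000 reads in untreated WT and 845 ± 310 with CMC (SD, n = 3), and at 14.3 ± 3.17 and 575 ± 45.6 in KO. With only 0.388% of the uridines, they held 3.35% of all uridine deletions in WT with CMC and 5.27% in KO. Only the 3 sites described had a cytidine before the uridine, and the other 9 had 0 to 15 deletions each over all 12 libraries. At the cytidine after mt-Nd3 nt 71, mt-Nd2 nt 411 and mt-Co2 nt 233 lay 15.1%, 34.4% and 31.2% as many deletions in WT with CMC. In KO with CMC the numbers were 25.2%, 33.5% and 64.1%. The counts per base do not show if the same reads lost both bases. Adenosines followed by 4 cytidines (15 positions) stood at 1.90 ± 1.89 in untreated WT and 64.4 ± 7.49 with CMC, a ratio of 33.8, and at 5.04 ± 1.82 and 33.9 ± 4.41 in KO, a ratio of 6.73. Guanosines there (6 positions) stood at 1.84 ± 3.19 and 23.4 ± 10.2 in WT, a ratio of 12.7, with untreated libraries at 0, 5.52 and 0. In KO they stood at 8.75 ± 2.79 and 15.8 ± 0.20, a ratio of 1.81, where all guanosines had 2.23. The other bases thus also stood higher with CMC before cytidines, but for guanosines in KO no more than elsewhere. Leaving the 12 out, the ratio of the CMC to the untreated rate of all uridines was 4.35 in WT and 2.47 in KO.

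mt-Nd3 nt 158 was the other site with almost no background. It had no deletion in 9708 reads of untreated WT and 38050 of untreated KO, and 3385, 3979 and 1679 per 1000000 reads with CMC in WT and 635, 508 and 845 in KO. The rate was at least 10.1-fold higher with CMC in WT and at least 8.42-fold in KO, with a floor of 3 counts over the untreated group. The call in WT had adjusted p = 8.44e-05; in KO it had under 20 deletions and was not tested. With CMC, 93.8% as many deletions lay at the adenosine before it in WT and 100% in KO, and at the base after it 0% and 35.3%. Deletions there may thus span more than 1 base, which counts per base do not show. Every WT library with CMC was above every KO library with CMC, and the genotypes had adjusted p = 0.0705 (log2 -2.17 ± 0.57).

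Another kind of site was deleted already without CMC and rose several-fold. mt-Co2 nt 251 stood at 1051, 1284 and 1173 per 1000000 reads in untreated WT and 4251, 5176 and 4207 with CMC. In KO it stood at 1151, 1181 and 1059 without and 4461, 3963 and 4164 with CMC. The log2 changes were 1.96 ± 0.24 in WT (adjusted p = 6.46e-09) and 1.89 ± 0.09 in KO (adjusted p = 9.86e-37). The 2 genotypes overlapped in both conditions.

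mt-Co1 nt 808, in the mRNA of the catalytic subunit of cytochrome c oxidase, was at 749, 615 and 553 per 1000000 reads in untreated WT and at 3196, 3231 and 3262 with CMC. In KO it was at 597, 589 and 668 without and 3135, 2760 and 2967 with CMC (log2 2.26 ± 0.11, adjusted p = 1.79e-35). Here WT replicate 3 was no lower than the other 2. mt-Nd4 nt 1212, in a complex I mRNA, was at 647, 622 and 661 in untreated WT and 2770, 2940 and 3407 with CMC, and in KO at 552, 599 and 565 without and 3806, 3136 and 3196 with CMC (log2 2.56 ± 0.21, adjusted p = 2.93e-20). At these sites the adenosine after the uridine carried 99.5% (mt-Co2 nt 251), 99.4% (mt-Co1 nt 808) and 101% (mt-Nd4 nt 1212) as many deletions in WT with CMC. Such counts would arise if the 2 bases were lost together, but counts per base do not show it. The sites lie within dinucleotide repeats, and which copy of the repeat was lost cannot be told.

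**Figure D2:**
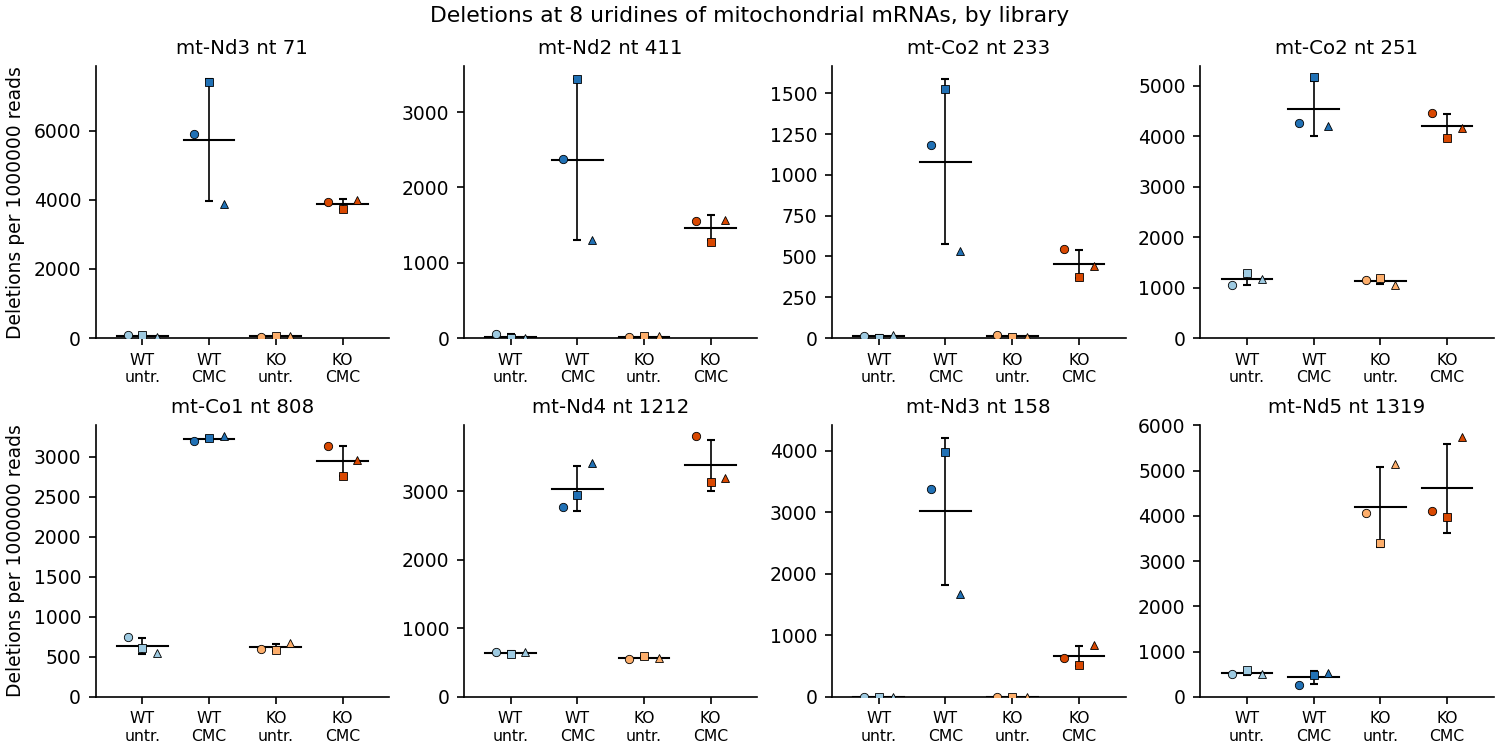
Deletions per 1000000 reads (y axis, from 0, scaled per panel) at 8 uridines in the 4 groups (x axis; untr., untreated). Points are libraries (circle, square and triangle for replicates 1, 2 and 3), lines are means and bars are SD; the first 7 sites are higher in all CMC libraries, and mt-Nd5 nt 1319 is higher in all KO libraries with or without CMC.

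In mt-Nd5, the mRNA of another complex I subunit, 3 uridines were among the largest rises in both genotypes. mt-Nd5 nt 1408 went from 44 to 229 per 1000000 reads in untreated WT to between 1151 and 1661 with CMC (log2 3.55 ± 0.58, adjusted p = 1.73e-06). In KO it went from between 0 and 193 to between 1016 and 1084 (log2 3.40 ± 0.47, adjusted p = 9.48e-10). mt-Nd5 nt 876 rose by a log2 of 2.78 in both WT and KO, and mt-Nd5 nt 1027 by 3.55 in KO; at nt 1027 untreated WT held only 2 deletions, and the ratio was 17.0 (95% counting interval 4.43 to 145). mt-Nd5 nt 1408 lies where the gene table of the authors also places the antisense gene mt-Nd6, and reads of both strands are summed there. All 3 uridines lie in dinucleotide repeats. In WT and KO with CMC, 100% and 101% as many deletions lay at the base before nt 1408. The numbers were 70.4% and 72.0% before nt 876, and 37.2% and 27.3% before nt 1027. Which base of the repeat was lost cannot be told.

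The other sites among the 10 largest rises per genotype were mt-Co2 nt 589, mt-Atp6 nt 422 and mt-Atp6 nt 423 in WT, and mt-Co2 nt 231 and mt-Co2 nt 616 in KO. mt-Atp6 encodes a membrane subunit of ATP synthase. Its nt 422 and nt 423 had nearly equal numbers of deletions (97.5% as many at nt 423 as at nt 422 in WT with CMC). The same reads may have lost both, so they are not counted as independent. At nt 422 the rate was 62 to 252 per 1000000 reads in untreated WT and 436 to 1960 with CMC (log2 2.91 ± 0.55, adjusted p = 2.23e-05). mt-Co2 nt 231 lies in the same repeat as nt 233 and stood at 204 to 270 without and 1118 to 2078 with CMC in WT. At the cytidine before nt 231 lay 58.2% as many deletions in WT with CMC and 79.8% in KO with CMC. mt-Co2 nt 589 had 1 deletion in untreated WT and 22 with CMC (ratio 12.9, 95% counting interval 2.09 to 534). Its call in WT (adjusted p = 0.0134) was lost without WT untreated replicate 1 or replicate 2 (adjusted p up to 0.0659). At the cytidine before nt 589 lay 50.0% as many deletions in WT with CMC and 61.5% in KO with CMC.

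Of the 10 largest rises in WT, 8 were at single uridines and 7 had a cytidine before; in KO the numbers were 9 and 8, and 5 sites were named in both. The rule asked for a mean rate of at least 1000 per 1000000 reads in the higher group and for libraries that did not overlap, and 37 uridines met it for a rise in WT and 18 in KO. For a fall 0 met it in either. Of all tested positions, the lowest CMC library lay above the highest untreated one at 70.9% in WT and 57.1% in KO. Scaled to the rate at other bases, the WT calls at mt-Co2 nt 589, mt-Atp6 nt 422, mt-Atp6 nt 423 and mt-Nd5 nt 876 and the KO call at mt-Co2 nt 616 were lost. Of the 5 uridines most deleted in untreated WT, mt-Co2 nt 251 was single and the other 4 opened runs of 4 or more uridines; none of those 4 was called in either genotype. mt-Nd3 nt 32, the highest, stood at 1458, 1688 and 1642 in untreated WT and 1921, 1875 and 1082 with CMC, with no change called by edgeR (log2 0.01 ± 0.37, adjusted p = 0.978).

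**Figure D3:**
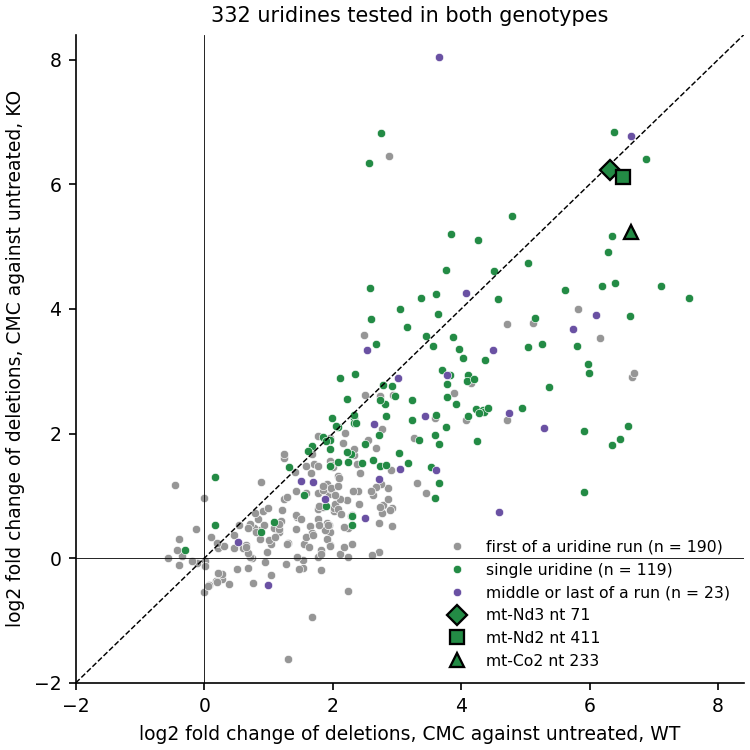
log2 fold change of deletions with CMC in WT (x axis) and KO (y axis) for the 332 uridines tested in both, by place in a run of uridines, with 3 sites marked; the dashed line marks equal change. Of the 332, 277 lie below the line, a count that was not made over all positions. Fitted values of sites with few untreated deletions depend on the prior count and are no bounds.

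The rate without CMC went with the place of a uridine in a run. Reads with a base missing from a run are aligned so that the loss falls on its first base, and the 677 uridines that open a run had 67.9 ± 1.46 deletions per 1000000 reads in untreated WT, compared with 3.47 ± 0.55 for the last and 3.82 ± 1.03 for the middle ones (SD, n = 3). With CMC the first uridines stood at 224, 286 and 127 in WT and 129, 112 and 135 in KO, 3.13 and 1.68 times the untreated mean. Runs of 4 or more gave the smallest ratios, 2.46 in WT and 1.62 in KO, against 6.96 and 4.50 for single uridines.

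The neighbouring base also went with the rate. Uridines after a cytidine stood at 35.7 ± 1.04 without and 205 ± 73.9 with CMC in WT. At 27.2% of the uridines they held 41.5% of all uridine deletions in WT without CMC and 53.5% with CMC. Uridines before a cytidine were among the least deleted without CMC (5.10 ± 0.33 in WT, 5.20 ± 0.42 in KO) and stood at 71.3 ± 27.6 and 44.7 ± 4.94 with CMC, ratios of 14.0 and 8.61. A uridine after a cytidine is single or opens a run, and one before a cytidine is single or closes a run. These groups therefore also differ in place in a run. Single uridines with a cytidine on both sides (177 positions, grouped after the values were seen) had ratios of 15.8 and 9.87.

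Repeats carried a large part. The 443 uridines in dinucleotide repeats, a group also formed after the values were seen, stood at 46.8 ± 0.79 per 1000000 reads in untreated WT and 250 ± 59.5 with CMC. At 14.3% of the positions they held 30.4% of the uridine deletions with CMC in WT and 34.2% in KO. Without CMC they held 25.7% in WT and 24.7% in KO. Outside runs and repeats, 1151 uridines stood at 6.08 ± 0.28 and 54.5 ± 22.2 in WT (ratio 8.97) and at 7.28 ± 0.61 and 33.7 ± 4.08 in KO (ratio 4.63). Adenosines of the same kind had ratios of 5.80 and 2.96, cytidines 6.56 and 4.93, and guanosines 3.69 and 2.26. In KO the cytidine ratio was therefore above that of uridine.

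**Figure D4:**
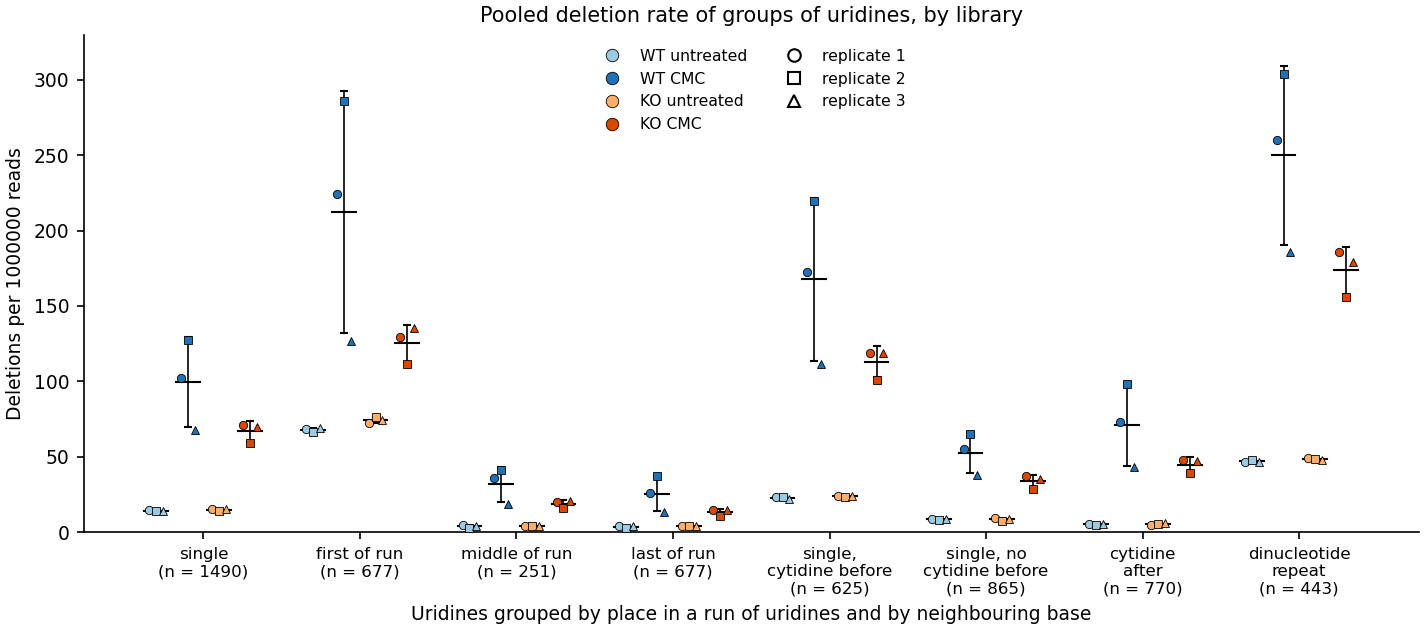
Pooled deletions per 1000000 reads (y axis) of groups of uridines by place in a run of uridines and by neighbour (x axis); points are libraries, lines are means and bars are SD (n = 3). Uridines that open a run are high already without CMC, and uridines before a cytidine are near the bottom without CMC.

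Short sequence motifs of known pseudouridine synthases were also searched. The letters TNTAA or TNTAG, with the uridine at the third base, which resemble the site of PUS7, were searched on the plus strand, the strand of these mRNAs, and were held by 106 of the 3095 uridines (3.42%). Those stood at 6.60 ± 0.61 per 1000000 reads in untreated WT and 18.2 ± 7.33 with CMC, and at 7.81 ± 0.78 and 11.4 ± 1.85 in KO, ratios of 2.76 and 1.45, where all uridines had 4.49 and 2.60. The letters GTTCNANNC, with the uridine at the third base, were held by 2 uridines, which had no deletion in any CMC library.

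By mRNA, the pooled uridine rate with CMC in WT ran from 69.9 ± 34.1 in mt-Nd2 to 290 ± 89.7 in mt-Nd3, leaving aside the short overlaps of mt-Atp8 with mt-Atp6 and of mt-Nd4l with mt-Nd4. mt-Co2 came next, at 33.2 ± 1.73 without and 182 ± 44.1 with CMC in WT and at 32.4 ± 1.33 and 137 ± 10.7 in KO. mt-Co3, of the same enzyme, was at 13.4 ± 1.09 and 79.9 ± 36.9 in WT. The other mRNAs had means between 69.9 and 108 in WT with CMC. Since all mRNAs share the libraries, they compare best within each: mt-Nd2 stood at 70.2, 104 and 35.7 and mt-Nd1 at 111, 146 and 67.0, so mt-Nd2 was the lower in all 3. Much of mt-Nd3 was 2 sites: without nt 71 and nt 158 it stood at 38.6 ± 1.83 and 76.2 ± 30.5 in WT and at 31.3 ± 2.30 and 45.7 ± 3.52 in KO. mt-Co2 also held sites far above its pooled rate. With CMC its nt 251, nt 231 and nt 233 had means of 4545, 1596 and 1081 in WT and 4196, 1095 and 454 in KO. The rate of mt-Co2 without them was not computed, so it is not shown to be spread over the mRNA.

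**Figure D5:**
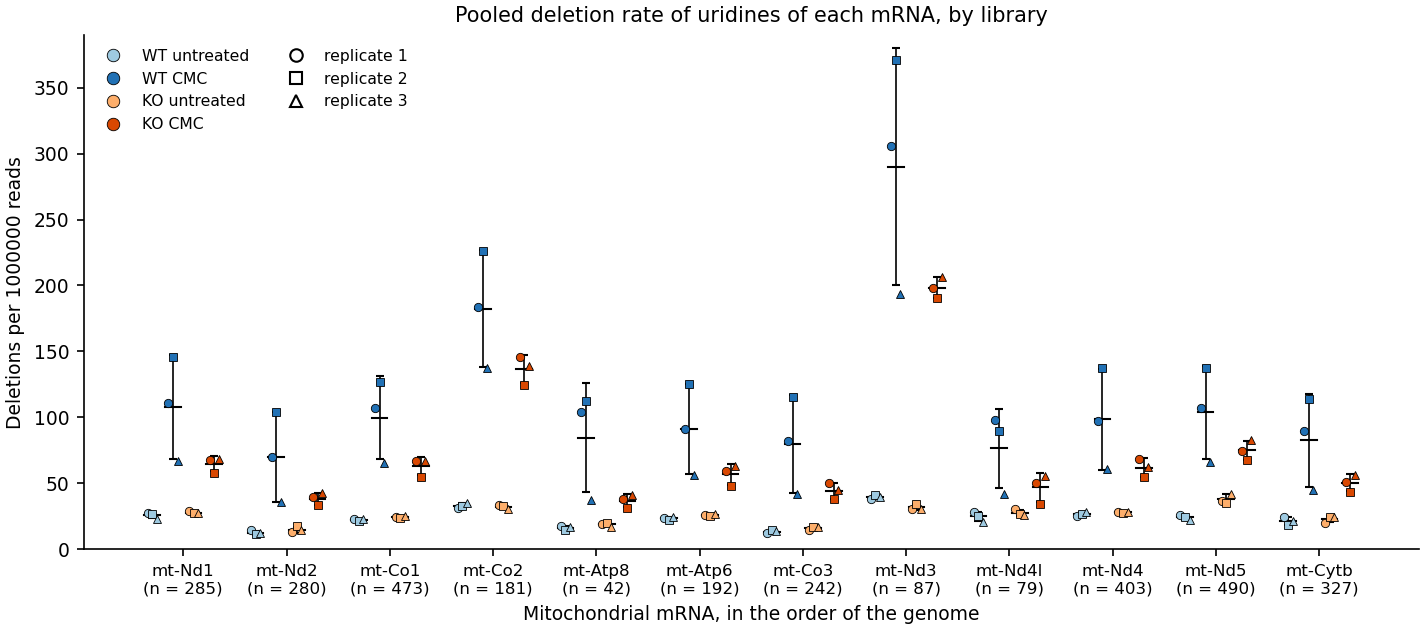
Pooled deletions per 1000000 reads (y axis) of the uridines of each mRNA (x axis, genome order); points are libraries, lines are means and bars are SD (n = 3). mt-Nd3 and mt-Co2 reach the highest rates with CMC.

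Codon position gave a smaller spread. In WT, uridines at the first codon base stood at 32.0 ± 1.83 without and 136 ± 45.7 with CMC, at the second at 22.4 ± 0.31 and 92.4 ± 31.3, and at the third at 15.3 ± 1.31 and 91.2 ± 33.4. In KO with CMC the rates were 81.0 ± 7.69, 60.7 ± 5.61 and 57.6 ± 7.44.

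Between genotypes without CMC, 1 of 256 tested uridines was higher in KO and 0 lower (all positions: 0.164% higher, 0.329% lower). At an unadjusted p under 0.05, 10 were higher and 4 lower, against 55 and 52 of all 1217 positions tested. DESeq2 also called 1 uridine higher and 0 lower. The pooled uridine rate was nonetheless slightly higher in every KO library than in every WT one (24.8 ± 0.17 against 22.8 ± 0.53; exact permutation p = 0.1), while that of adenosines was 22.1 ± 0.10 against 21.7 ± 0.29.

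The uridine called was mt-Nd5 nt 1319 (position 13060), which follows a run of 7 cytidines. It was deleted at 509, 585 and 500 per 1000000 reads in untreated WT and at 4065, 3390 and 5143 in untreated KO (log2 2.96 ± 0.24, adjusted p = 8.56e-18). With CMC it stood at 266, 479 and 535 in WT (log2 -0.29 ± 0.53, adjusted p = 0.632) and 4113, 3977 and 5734 in KO (log2 0.13 ± 0.15, adjusted p = 0.504). The cytidine that opens the run, 7 bases before, was deleted at 2122 ± 327 in WT and 2426 ± 509 in KO without CMC and was not called (log2 0.20 ± 0.21, adjusted p = 0.896). Of the deletions at nt 1319 in KO, 29.9% lay on forward reads without CMC and 34.7% with CMC. The site lies in the stretch shared with mt-Nd6, whose uridines stood at 65.1 ± 10.8 in untreated KO and 26.4 ± 3.24 in untreated WT; without nt 1319 the values were 23.3 ± 5.89 and 21.2 ± 3.65.

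With CMC, 1 of 598 tested uridines was higher in KO, again mt-Nd5 nt 1319 (log2 3.39 ± 0.35, adjusted p = 7.25e-06; with limma adjusted p = 0.111), and 1 was lower (all positions: 0.0797% higher, 1.08% lower). At an unadjusted p under 0.05, 155 uridines were lower and 1 higher, where 512 of all 2510 positions tested were lower and 10 higher. Lower values in KO were thus also frequent over all positions. DESeq2 called 16 uridines lower and 1 higher. The lower one was mt-Co1 nt 1276, at 152, 199 and 63 per 1000000 reads in WT and 37, 34 and 46 in KO with CMC (log2 -1.80 ± 0.43, adjusted p = 0.0407). Its groups did not overlap, but the call was lost with limma and when any library but WT CMC replicate 3 was left out (adjusted p up to 0.287). The count rests on WT CMC replicate 3: without it 230 of 569 tested uridines were lower in KO and 1 higher, and of all positions 29.0% and 0.341%. The uridine rate of the other 2 WT libraries was 1.88 times the KO mean, that of guanosines 1.82 times, and those of adenosines and cytidines 1.43 times each.

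The difference between the CMC effects of the genotypes, taken in a fit of all 12 libraries, was called for 0 uridines in the direction of KO and for 1 in that of WT, of 709 tested (all positions: 0.0% and 0.661%). At an unadjusted p under 0.05, 8 were larger in KO and 94 larger in WT, against 34 and 340 of all 3024 positions tested. DESeq2 called 0 uridines either way. The site was mt-Co1 nt 192, at 0, 36 and 0 per 1000000 reads in untreated WT and 270, 613 and 126 with CMC (2 and 53 deletions; ratio 28.4, 95% counting interval 7.47 to 240). In KO it was at 112, 61 and 62 without and 159, 60 and 177 with CMC, groups that overlapped. The difference of log2 effects was -3.92 ± 1.01 (adjusted p = 0.0344), and 12 of 20 alternatives ended the call (adjusted p up to 0.289): limma, DESeq2, no minimum on deletions, scaling to other bases, and leaving out any of 8 libraries. Without WT CMC replicate 3, 45 of 683 uridines had a smaller effect in KO and 0 a larger one, and of all positions 5.19% and 0.0692%.

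The misread share of uridines, in mismatches per 1000000 reads, was 1385 ± 82.3 without and 1495 ± 258 with CMC in WT (exact permutation p = 0.6) and 1440 ± 18.9 and 1525 ± 53.2 in KO (exact permutation p = 0.1). By edgeR 2 of 2965 tested uridines rose and 0 fell in WT (all positions: 3.88% and 0.00752%; at an unadjusted p under 0.05, 92 and 41). Without WT CMC replicate 1, 18 rose and 60 fell. In KO 52 of 3055 rose and 178 fell (all positions: 10.2% and 5.11%). Cytidines of the mRNAs rose more often, 12.1% of those tested in WT (329) and 37.9% in KO (1042), with a pooled rate of 1743 ± 85.7 without and 2312 ± 175 with CMC in WT. Among misread uridines, reads as cytidine stood at 317 ± 9.18 without and 396 ± 29.3 with CMC in WT, and at 377 ± 7.96 and 550 ± 13.8 in KO. In WT CMC replicate 1 reads as guanosine stood at 656, compared with 205 and 215 in the other 2.

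Of the 10 largest deletion rises per genotype, mismatches passed the test at 0 of 10 in WT and 1 of 10 in KO. At mt-Nd3 nt 71 the misread share was 0.0720% ± 0.0045 without and 0.113% ± 0.0087 with CMC in KO (SD, n = 3; log2 0.65, adjusted p = 5.28e-06) and 0.0782% ± 0.018 and 0.120% ± 0.025 in WT (log2 0.61, adjusted p = 0.337). Insertions at uridines were at 4.47 ± 0.24 per 1000000 reads without and 5.70 ± 0.47 with CMC in WT and at 4.27 ± 0.060 and 4.31 ± 0.13 in KO.

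A stop of reverse transcription at an adduct would raise depth at the next base on the 3′ side over that at the uridine. This step, as a log2 ratio tested with limma, rose with CMC at 266 of 3095 uridines and fell at 158 in WT (all positions: 9.06% and 6.77%), and rose at 929 and fell at 814 in KO (all positions: 30.1% and 25.8%). In WT the count of rises ran from 59 without untreated replicate 3 to 535 without CMC replicate 3. Both WT counts were also far lower with the replicate number as a block. At mt-Nd3 nt 71 the step did not pass the test in WT (adjusted p = 0.372) or in KO (adjusted p = 0.836). Among the 10 largest deletion rises, it passed the test upward at 1 and downward at 0 in WT and at 2 and 4 in KO; that in WT was mt-Co2 nt 589, by 0.011 (adjusted p = 0.0246).

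Genes for pseudouridine synthases were read beside these results in the untreated libraries, from a list of 13 of which 11 were measured. Of the 11, 2 were higher in KO and 0 lower (all 12228 genes tested: 29.2% higher, 28.7% lower). Pus1, whose product modifies transfer RNAs in nucleus and mitochondria, had 25, 13 and 12 reads in WT and 41, 42 and 43 in KO libraries (log2 1.19 ± 0.24, adjusted p = 3.79e-06). Pus7, a synthase of transfer RNAs and mRNAs, had 50, 48 and 41 reads in WT and 82, 75 and 70 in KO (log2 0.57 ± 0.16, adjusted p = 0.000993). Trub2 and Rpusd3, linked to mitochondrial mRNA sites, were at log2 0.12 ± 0.15 (adjusted p = 0.538) and 0.44 ± 0.33 (adjusted p = 0.248), and Rpusd4, which acts on 16S ribosomal RNA, at 0.04 ± 0.25 (adjusted p = 0.900). In bulk hearts, fewer cells of a type and less RNA per cell cannot be told apart.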

How the data were processed

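Total heart RNA was sequenced after depletion of cytoplasmic ribosomal RNA, with or without CMC, per the labels' protocols. The deposited per-base tables give read, deletion, insertion and mismatch counts at each mitochondrial position, made with pysamstats per the file headers; the deposited gene table gives read counts per gene. HISAT2 2.0.5, SAMtools 1.5, featureCounts 1.5.1, DESeq2 1.16.1 and mm10 are named in the submitters' processing notes, without roles or order. The sources do not state if strand was used in counting, and here reads of both strands are summed. The authors' comparison tables were not used.

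Deletion and mismatch counts were tested per position with edgeR 4.0.16 (quasi-likelihood, log depth as offset) in R 4.3.3. Positions tested had at least 1000 reads in all 12 libraries. In the libraries fitted they had at least 20 deletions for the deletion test, or at least 20 mismatches for the mismatch test. Benjamini-Hochberg adjustment was over all positions tested, with calls at 0.05. Each comparison used its 6 libraries; the difference of CMC effects used 12. Depth steps were tested with limma 3.58.1, and DESeq2 1.42.0 was an alternative. Pooled rates were compared by two-sided exact permutation tests (scipy 1.17.1). Scripts were tested on simulated data. There edgeR recovered 15.8% of 2-fold and 57.3% of 4-fold changes for CMC in WT, and 34.3% and 92% in KO. For KO against WT the shares were 6.74% and 61.0% with CMC and 26.0% and 78.7% without. A uridine not called may therefore still differ. Deletions in runs fall on the first base of the run. Named positions were the 10 largest rises per genotype with a rate of at least 1000 per 1000000 reads in the higher group and no overlap of libraries, the 5 highest in untreated WT, and those of smallest p between genotypes. Replicate numbers were not treated as pairs. The members and lists were chosen with earlier results of these data known. Intervals are at 95% and cover counting error only. Sequences are windows of 31 bases of mm10.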

Additional observations from a re-analysis of the deposited data

Results flagged for a closer look

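mt-Co1 nt 192 was singled out because its CMC effect differed between the genotypes in the test of the difference itself: the log2 effect in KO minus that in WT was -3.92 (edgeR, adjusted p = 0.0344). In WT the 3 untreated libraries held 2 deletions and the CMC libraries 53, and in KO the groups overlapped. Over the alternatives the difference lay between -7.08 and -3.16 on the log2 scale.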

How the results depend on the processing

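No pooled rate and no value at a named position changed sign under the alternatives run. The balance of calls did so for KO uridines when scaled and for WT mismatches without WT CMC replicate 1 (18 higher, 60 lower). Of the counts and pooled rates under the alternatives, 227 stayed within 1.5 times or 1 SD of the reported value and 71 did not; of the values at single positions 331 kept their call and 27 lost it. The cause was not tested. With CMC in WT the uridines that rose numbered 405 in a fit of all 12 libraries (1 fell), 77 when scaled to the rate at other bases (32 fell) and 119 among single uridines. In KO they numbered 94 when scaled (140 fell) and 146 among single uridines, and limma called 1 lower. For KO against WT with CMC limma called 0 higher and 0 lower; the lower calls numbered 10 with no minimum on deletions, 61 in the fit of 12 libraries, 16 with DESeq2, 5 when scaled, 2 when only the mRNA stretches were fitted and 0 among single uridines. Smaller effects in KO numbered 0 with no minimum, limma, DESeq2, scaling or single uridines and 3 with only the mRNA stretches fitted. A depth of at least 5000 gave 1 fall of mismatches in WT. The pooled log2 change was 2.80 for single uridines in WT (2.17 for all), 2.17 for single uridines and 1.20 as a mean of shares per position in KO (1.38 for all), and between untreated genotypes 0.18 as a mean of shares and 0.056 for single uridines (0.12 for all). The planned median over members gave no value, since it was 0 without CMC.

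With the replicate number as a block, KO against WT with CMC had 3 lower calls, mismatches in WT rose at 1 uridine, and depth steps in WT rose at 39 and fell at 9; it moved no other count by over 1.5 times. Same-numbered libraries did not deviate together (correlations from -0.156 to 0.101 over 1070 positions); in the WT comparison each library correlated best with its own number (0.0542, 0.0209 and 0.0540), a hint from the data only.

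Leaving out each library gave 162 to 260 rises in WT, 194 to 245 rises and 0 to 1 falls in KO, 0 to 230 lower in KO with CMC and 0 to 45 smaller effects in KO. Mismatches in WT rose at 0 to 18 and fell at 0 to 60 uridines, and in KO rose at 32 to 44 and fell at 101 to 200. Depth steps rose at 59 to 535 and fell at 25 to 421 in WT, and rose at 721 to 1016 and fell at 588 to 859 in KO. Pooled log2 changes ran from 1.91 to 2.41 in WT, 1.33 to 1.46 in KO, -0.91 to -0.42 between genotypes with CMC and 0.10 to 0.13 without. Synthase genes higher in KO numbered 2 to 3. In WT, a site with no deletion at the median depth still allows up to 152 per 1000000 reads.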
